A study of Mus musculus with 12 samples.

Results

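Adipogenic medium and dihydrotestosterone given together were compared with no treatment at all in M2-10B4 cells, a stromal line cloned from mouse bone marrow (background C57BL/6J X C3H/HeJ). The comparison takes 6 of the 12 libraries of the series, 3 from ADM+DHT cultures and 3 from control cultures, and no deposited table holds this pair. ADM+DHT cells were kept for 9 days in adipogenic medium (ADM), which held 2 µM rosiglitazone, 1 µM dexamethasone and 2 µg/mL insulin in phenol red-free RPMI with 10% serum stripped by charcoal, and 10 nM dihydrotestosterone (DHT) was added to it. The 3 ADM libraries come from cells in the same medium without DHT and the 3 DHT libraries from cells given 10 nM DHT in regular medium, and both are used here to place the ADM+DHT level of a gene among all 4 groups. Control cells stayed untreated in regular medium for the same 9 days. Medium and agents were renewed every 3 days. What the regular medium contained is not given in the sources used here, so insulin, dexamethasone, rosiglitazone, any difference in serum or base medium, and DHT all differ at once between ADM+DHT and control and cannot be told apart in this pair. All cells come from 1 line, and the labels call the 3 cultures of a group biological replicates.

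Stromal cells of the marrow can become fat cells or bone-forming cells. Insulin, a glucocorticoid and a ligand of the nuclear receptor PPAR gamma (gene Pparg) are the usual inducers of fat cell formation: glucocorticoids switch on early C/EBP factors, and PPAR gamma then drives genes of lipid uptake, storage and breakdown. DHT is a potent androgen, made from testosterone, and androgens are known to hold back fat cell formation in progenitor cells. By its title the series is about what androgens do while marrow stromal cells turn into adipocytes.

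Of 12028 protein-coding genes in the joined tables, 11796 had FPKM values (fragments scaled to transcript length and library size) in all 6 libraries, and the 10987 that averaged 1 FPKM or more in either group were tested. The libraries summed to between 247146 and 249981 FPKM in ADM+DHT and between 240651 and 248277 in control, and no read counts were used here, so depth is unknown. Transcripts of the mitochondrial genome made up 13.6% ± 0.313 of all FPKM in ADM+DHT, 16.8% ± 0.418 in ADM, 10.1% ± 0.450 in DHT and 9.57% ± 0.342 in control (mean ± SD, n = 3 each). The line's own stromal markers were strongly expressed as a set: 9 of 10 had values in all 6 libraries, and they summed to 2686 to 2723 FPKM in ADM+DHT and 3258 to 3371 in control. They did not move together. In the test described below 2 of the 9 rose and 5 fell, with log2 differences from -2.38 (Dcn) to 1.63 (Cxcl12). Markers of other cells were scarce. The 5 of 12 macrophage and haematopoietic markers with values summed to 7.80 to 8.0 FPKM in ADM+DHT and 16.4 to 18.3 in control, with Cd74, a chaperone of MHC class II, at 0.445 ± 0.175 FPKM in ADM+DHT and 6.20 ± 0.361 in control and the lysozyme gene Lyz2 at 4.65 ± 0.258 FPKM in ADM+DHT and 8.11 ± 0.952 in control. Cd68 and Cd14 did not pass the test described below. The single endothelial marker with values stood at 0.643 to 0.879 FPKM in ADM+DHT and 0.108 to 0.232 in control, and the 4 of 12 skeletal muscle markers with values summed to 12.8 to 13.5 FPKM in ADM+DHT and 15.5 to 20.1 in control. The troponin gene Tnnt3 was lower (-1.79), and Tnnt1 and Tnnc1 did not pass. The 4 of 10 epithelial and neural markers with values summed to 27.3 to 29.6 FPKM in ADM+DHT and 17.8 to 19.8 in control, nearly all of it S100b, a calcium-binding protein that chondrocytes and fat cells also express, at 25.5 ± 1.39 FPKM in ADM+DHT and 13.8 ± 0.723 in control. Of the neural markers Tubb3 was lower (-1.27), and Mbp did not pass.

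Differences between groups are given as log2 differences of FPKM + 1, ADM+DHT minus control, ± SE from limma, and they understate the fold of genes near 0 FPKM. A gene rose or fell where its p adjusted over all genes tested lay below 0.05. By that measure 6587 genes changed, 60.0% of those tested: 3182 were higher in ADM+DHT (29.0%) and 3405 lower (31.0%). Most changes were small. Only 653 genes were higher by at least 2-fold on this scale (5.94%) and 628 lower (5.72%). The median difference over all genes tested was -0.0055, with quartiles at -0.32 and 0.28, and 28 genes rose by 4 log2 units or more while 3 fell by as much. The libraries of ADM+DHT and control did not overlap for 7361 genes, or 67.0%. Since so many genes changed, every count of a gene list below is to be read against these shares.

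**Figure D1:**
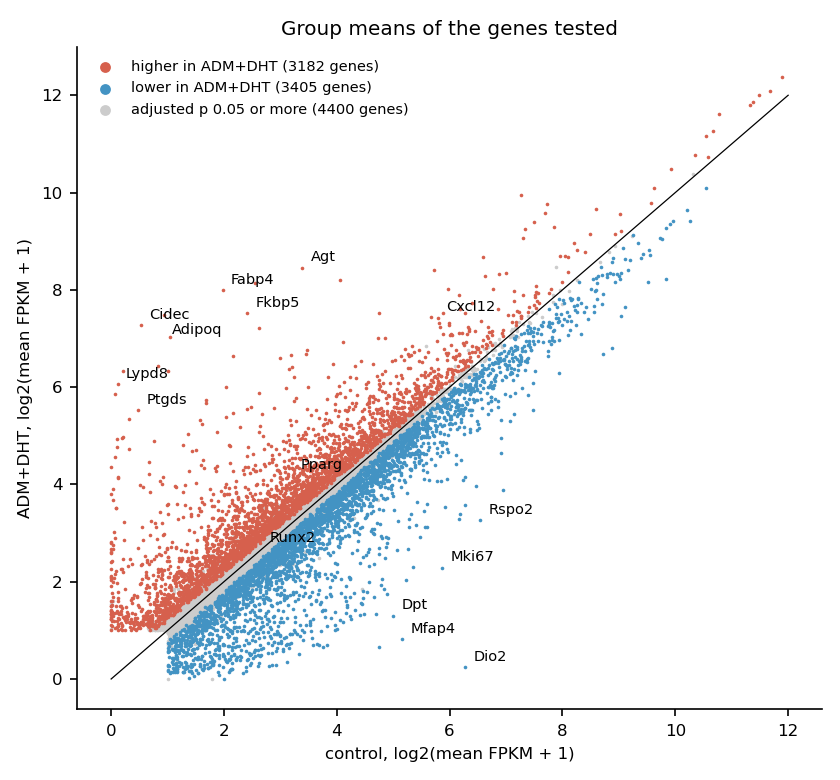
Mean level of each of the 10987 genes tested in ADM+DHT (vertical axis) and control (horizontal axis), both as log2 of mean FPKM + 1. Red points were higher in ADM+DHT, blue points lower, grey points not past the threshold, and the line marks equal levels. Agt, Fabp4, Fkbp5 and Cidec lie far above the line, Dio2 and Mfap4 far below it, and Runx2 on it.

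Fat cell genes led the rises. Cidec (ENSMUSG00000030278.11, chromosome 6, 113424634 to 113435760 in GRCm38), whose protein fuses lipid droplets, had 148, 159 and 155 FPKM in ADM+DHT libraries, against 0.413, 0.405 and 0.494 FPKM in control libraries. Its log2 difference was 6.75 ± 0.053 (adjusted p = 1.44e-09). For this and every result below, more or fewer cells of a kind and more or less RNA per cell cannot be told apart in bulk RNA. Adipoq (ENSMUSG00000022878.5, chromosome 16, 23146536 to 23158028), the gene of the hormone adiponectin, stood at 165, 180.3 and 188 FPKM in ADM+DHT and 1.01, 0.728 and 1.01 FPKM in control, a difference of 6.55 ± 0.078. The libraries of the groups were far apart for both genes, and neither gene passed 1.1 FPKM in any control library. Fabp4 (ENSMUSG00000062515.3, chromosome 3, 10204088 to 10208576), whose protein carries fatty acids in fat cells, was read at 249.7, 256 and 260.0 FPKM in ADM+DHT and 2.78, 3.07 and 2.97 FPKM in control (6.02 ± 0.044). Cyp2e1, a cytochrome P450 that oxidises ethanol and other small molecules, averaged 79.7 ± 7.29 FPKM in ADM+DHT and 0.162 ± 0.162 FPKM in control (6.12 ± 0.12), with control replicate 2 listed at 0. These 4 genes were higher still in ADM without DHT, at 385, 549.9, 624 and 172 FPKM, and below 4 FPKM in every library of DHT alone.

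Other leading rises had a different order among the 4 groups. Lypd8 (ENSMUSG00000013643.13, chromosome 11, 58379043 to 58390728), which encodes a small surface protein known from the mouse colon lining, had 65.4, 65.5 and 66.7 FPKM in ADM+DHT, 4.96, 3.03 and 4.01 in ADM, 37.5, 42.3 and 35.8 in DHT and 0, 0.0784 and 0.167 in control. Its level was thus high in both groups with DHT and low in both without it (ADM+DHT against control 5.95 ± 0.070). Ptgds (ENSMUSG00000015090.13, chromosome 2, 25466709 to 25470046), a prostaglandin D synthase, followed the same order, at 45.1 ± 9.02 FPKM in ADM+DHT, 1.18 ± 0.404 in ADM, 38.9 ± 5.45 in DHT and 0.398 ± 0.286 in control (ADM+DHT against control 5.05 ± 0.19, n = 3 each). ADM+DHT and DHT did not differ past the threshold for Ptgds (0.20, adjusted p = 0.409). Fkbp5 (ENSMUSG00000024222.16, chromosome 17, 28399095 to 28517524), an Hsp90 partner of steroid receptors and a gene that both glucocorticoids and androgens induce, had 180.1, 188 and 182 FPKM in ADM+DHT, 116, 115 and 119 in ADM, 49.9, 50.8 and 47.0 in DHT and 4.46, 3.92 and 4.61 in control. It was thus raised in every treated group and highest in ADM+DHT (5.11 ± 0.057 against control). Agt, the precursor of angiotensin, was near its ADM level, at 344, 359 and 348 FPKM in ADM+DHT, 319, 301 and 330.1 in ADM, 51.6, 55.9 and 53.7 in DHT and 8.27, 10.2 and 10.0 in control (5.07 ± 0.074 against control).

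The remaining leading rises were enzymes and a protease inhibitor. Aldh1a7, an aldehyde dehydrogenase with a close relative in Aldh1a1 that short reads may not separate fully, averaged 129.7 ± 5.74 FPKM in ADM+DHT and 1.06 ± 0.307 in control (6.00 ± 0.11). The phenol sulfotransferase gene Sult1a1 averaged 85.1 ± 1.36 FPKM in ADM+DHT and 0.788 ± 0.0950 in control (5.59 ± 0.057). Dpep1, a membrane dipeptidase, had 78.5, 79.6 and 79.3 FPKM in ADM+DHT and 1.00, 1.01 and 1.02 in control (5.32 ± 0.045), and its ADM and DHT means of 35.5 and 15.3 FPKM lay between. Ctla2a, which encodes a cathepsin inhibitor and has a near copy in the genome, averaged 282 ± 2.66 FPKM in ADM+DHT and 4.89 ± 0.952 in control (5.6 ± 0.11).

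**Figure D2:**
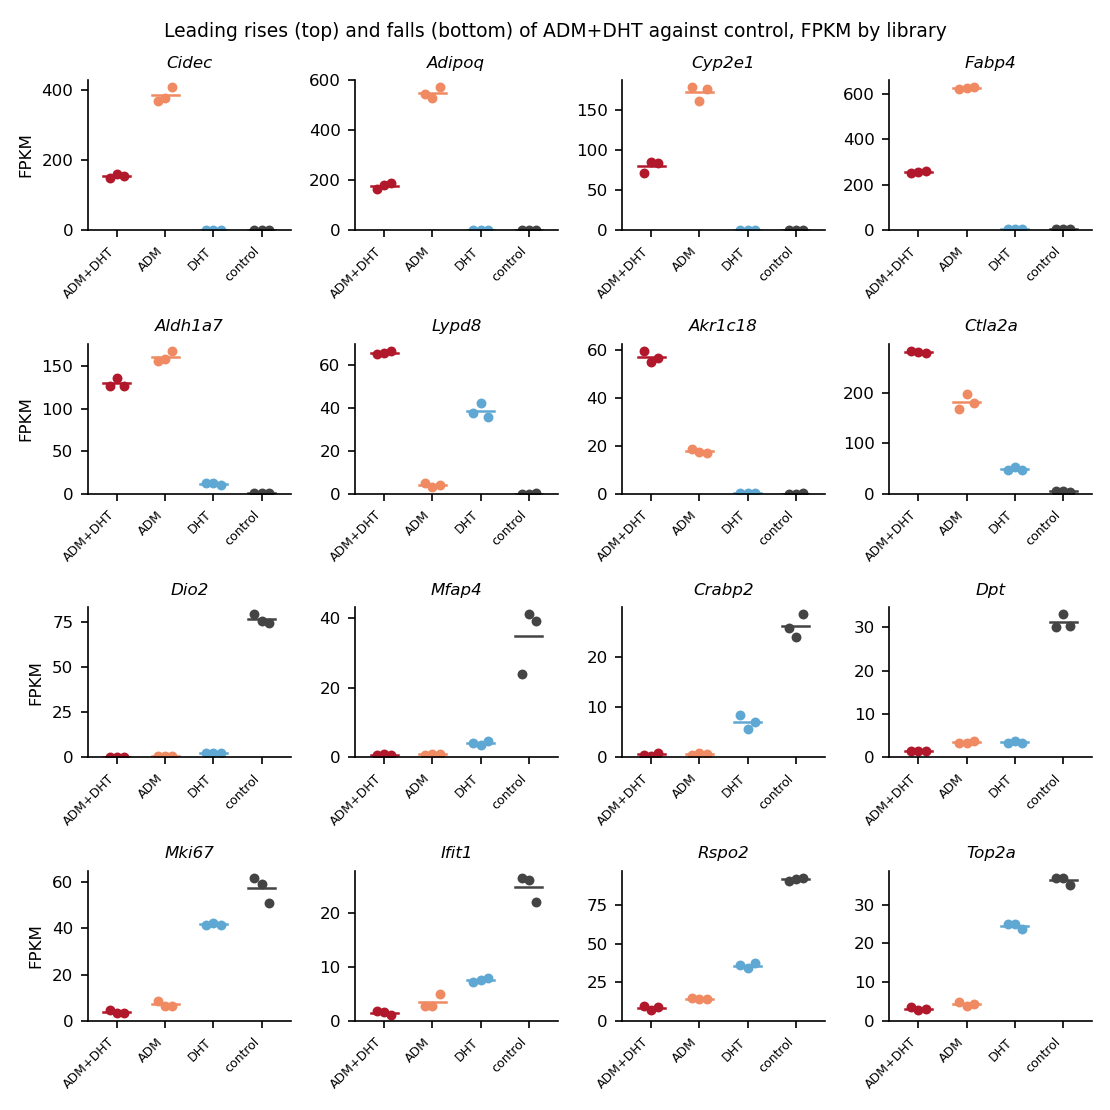
FPKM of the 8 largest rises (upper rows) and 8 largest falls (lower rows) of ADM+DHT against control, with 1 point per library, a bar for the mean of 3, and the groups ADM+DHT, ADM, DHT and control from left to right. Cidec, Adipoq, Cyp2e1 and Fabp4 are highest in ADM, Lypd8 is high in both groups with DHT, and Dio2 is high in control alone.

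The gene lists were described by counts and medians. They were chosen with earlier results of these data known, so a high share of members risen or fallen is a description. Some genes are in several lists, such as Ndrg1 in the androgen response and the glycolysis and hypoxia lists. Counts of different lists are therefore not separate results. Of the 12 adipogenic transcription factors tested, 9 rose, 1 fell and 2 did not pass, with a median log2 difference of 0.80. Pparg (ENSMUSG00000000440.12, chromosome 6, 115360951 to 115490399), the central regulator of fat cell formation, had 17.7, 17.8 and 16.2 FPKM in ADM+DHT and 8.98, 7.55 and 8.32 FPKM in control. The libraries did not overlap, and the difference was 0.98 ± 0.072 (adjusted p = 1.95e-05). Pparg was higher in ADM, at 28.1 ± 1.53 FPKM, and lower in DHT, at 5.72 ± 0.506 FPKM. Cebpd and Cebpb, factors of the early response, stood at 51.5 ± 1.18 and 57.4 ± 2.93 FPKM in ADM+DHT and 8.40 ± 0.191 and 31.3 ± 2.90 FPKM in control (2.48 ± 0.043 and 0.86 ± 0.071). Both were close to their ADM means of 54.2 and 54.7 FPKM. Rxra, the DNA-binding partner of PPAR gamma, rose by 1.09 and Klf9, a factor that glucocorticoids induce, by 1.06.

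Cebpa, which encodes the factor that acts with PPAR gamma in late fat cell formation, was uneven within both groups. It had 8.39, 36.0 and 8.31 FPKM in ADM+DHT and 8.62, 22.7 and 23 FPKM in control, so that 1 library of 3 stood apart in each group and the groups overlapped fully (-0.25 ± 0.59, 95% interval -1.65 to 1.14, adjusted p = 0.734). Without ADM+DHT replicate 2 the difference was -0.91 (adjusted p = 0.0978), and without ADM+DHT replicate 1 it was 0.074. In ADM the gene had 86.8, 65.7 and 65.9 FPKM, above every ADM+DHT library.

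Hormones of fat cells rose in 6 of 7 cases, with a median of 2.64 log2 units. Angptl4, a circulating inhibitor of lipoprotein lipase, averaged 73.0 ± 1.33 FPKM in ADM+DHT and 8.45 ± 1.18 in control (2.98 ± 0.084). Rarres2, which encodes chemerin, averaged 31.5 ± 0.889 FPKM in ADM+DHT and 8.98 ± 0.354 in control (1.70 ± 0.049), and Nampt, an enzyme of NAD synthesis that is also secreted, 69.9 ± 2.44 FPKM in ADM+DHT and 25.9 ± 0.448 in control (1.40 ± 0.041). The member that fell was Apln, the gene of apelin, at -0.55.

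In the lipid droplet and lipolysis list 13 of 14 members rose and 1 fell (Hilpda, an inhibitor of fat breakdown, at -0.78), with a median of 1.53. Plin1, the coat protein of large droplets, had 20.9, 29.9 and 27.9 FPKM in ADM+DHT and 0.0973, 0.0643 and 0.0571 FPKM in control (4.65 ± 0.13). The triglyceride lipase gene Pnpla2 had 104, 114 and 107 FPKM in ADM+DHT and 11, 9.83 and 9.31 FPKM in control (3.31 ± 0.066). Plin1 and Pnpla2 reached 89.8 and 294 FPKM in ADM.

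Among tested genes of fatty acid uptake and binding 8 of 13 rose, 3 fell and 2 did not pass, with a median of 1.07. The fatty acid transporter gene Cd36 had 37.4, 39.9 and 41.6 FPKM in ADM+DHT and 0.256, 0.316 and 0.155 FPKM in control (5.03 ± 0.075). Lpl (ENSMUSG00000015568.16, chromosome 8, 68880491 to 68907448), whose enzyme frees fatty acids from lipoproteins, had 32.3, 33.6 and 32.0 FPKM in ADM+DHT, 141, 144 and 148 in ADM, 0.601, 0.630 and 0.533 in DHT and 2.88, 2.58 and 2.52 in control. From high to low, the order ADM, ADM+DHT, control, DHT held in every library of Lpl, and ADM+DHT stood 3.20 ± 0.059 above control. The transporter gene Slc27a1 rose by 1.95 ± 0.079. The members that fell were the acyl-CoA synthetases Acsl3, Acsl4 and Acsl5, at -1.16, -0.56 and -0.83.

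The synthesis of fatty acids and triglycerides was split. Of 23 members 12 rose and 7 fell, with a median of 0.16. Gpd1 (ENSMUSG00000023019.12, chromosome 15, 99717515 to 99725005), which makes the glycerol phosphate backbone, had 13.9, 16.1 and 14.4 FPKM in ADM+DHT, 147, 155 and 181 in ADM, 0.526, 0.447 and 0.543 in DHT and 0.520, 0.285 and 0.492 in control. It was thus far above control (3.46 ± 0.094) and far below ADM (-3.36, adjusted p = 4.44e-10). Thrsp, a nuclear protein of lipogenic tissues, averaged 17.5 ± 1.25 FPKM in ADM+DHT and 0.602 ± 0.126 in control (3.53 ± 0.087), and the phosphatidate phosphatase gene Lpin1 18.4 ± 0.585 FPKM in ADM+DHT and 3.47 ± 0.255 in control (2.12 ± 0.064). Fads2, the delta-6 desaturase of polyunsaturated fatty acids, went the other way, with 22.3, 22.3 and 25.1 FPKM in ADM+DHT and 69.8, 62.9 and 71.3 FPKM in control (-1.51 ± 0.067).

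Genes of fat breakdown in mitochondria rose more evenly: 18 of 22 members were higher, 1 was lower and 3 did not pass (median 0.66). The lower member, Acot2, lost its call with any library but ADM+DHT replicate 2 left out. The medium-chain dehydrogenase gene Acadm had 126, 129 and 128 FPKM in ADM+DHT and 24.2, 26.5 and 25.9 FPKM in control (2.28 ± 0.042). Pdk4, a kinase that closes pyruvate dehydrogenase, averaged 53.5 ± 2.95 FPKM in ADM+DHT and 8.72 ± 0.471 in control (2.49 ± 0.059). Etfa, which takes electrons from these dehydrogenases, rose by 0.89 ± 0.034 and Eci1, an isomerase of unsaturated chains, by 1.21 ± 0.053. The share of mitochondrially encoded transcripts moved with these genes, at 13.6% in ADM+DHT and 9.57% in control, and its part in them was not tested.

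The mitochondrial genome and the nuclear genes of the same machinery differed in extent. Of the 13 mitochondrially encoded messages 12 rose, with a median of 0.49. The count was 6 after quantile normalization, where mt-Nd2 and mt-Nd5 stood at 0.000 and -0.000. The subunit gene mt-Nd2 had 3249.9, 3154 and 2959.7 FPKM in ADM+DHT and 1827, 1666 and 1756 FPKM in control (0.83 ± 0.049), and mt-Nd3, mt-Nd4 and mt-Nd5 rose by 0.75, 0.63 and 0.58. Of 30 nuclear respiratory chain genes 11 rose, 4 fell and 15 did not pass, with a median of 0.090, while 7 fell when libraries were rescaled to equal totals. Ndufs3, a subunit of complex I, rose by 0.54 ± 0.066, and Cox6a1 and Cox4i1, subunits of complex IV, and Ndufs8, of complex I, had differences of 0.39, 0.29 and -0.27. The citric acid cycle list had 11 of 22 members risen and 1 fallen (median 0.17), with 0 or 2 fallen when any library but ADM+DHT replicate 1 was left out. Its largest rise was in Pcx, the pyruvate carboxylase that refills the cycle, with 35.9, 36.3 and 36.4 FPKM in ADM+DHT and 8.26, 7.50 and 8.49 FPKM in control (2.04 ± 0.054), while Dld and Idh3b rose by 0.47 and 0.38.

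Breakdown of branched-chain amino acids, which feeds fat synthesis in fat cells, rose in 14 of 17 members (median 0.42). Aldh6a1, an enzyme of valine breakdown, averaged 26.4 ± 0.685 FPKM in ADM+DHT and 4.36 ± 0.389 in control (2.36 ± 0.066). The enzymes of the opening step went opposite ways. The mitochondrial aminotransferase gene Bcat2 had 18.5, 17.6 and 16.9 FPKM in ADM+DHT and 8.03, 8.07 and 7.35 FPKM in control (1.08 ± 0.059). The cytosolic Bcat1 had 2.38, 2.32 and 1.88 FPKM in ADM+DHT and 13.6, 12.6 and 12.9 FPKM in control (-2.14 ± 0.081). The groups did not overlap for either gene, and Bckdha, a subunit of the dehydrogenase that follows, rose by 1.18. In the peroxisome list 16 of 24 members rose and 0 fell (median 0.50), or 1 fell without ADM+DHT replicate 1 or control replicate 3. Catalase (Cat) averaged 82.7 ± 3.32 FPKM in ADM+DHT and 37.6 ± 2.20 in control (1.12 ± 0.054), and the lipid transfer protein gene Scp2, the racemase gene Amacr and the import factor gene Pex13 rose by 1.15, 1.28 and 1.01.

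Genes of sterol synthesis mostly fell. Of 23 members of the cholesterol list 17 fell and 2 rose, with a median of -0.53. Fdps, an enzyme of the isoprenoid stem, had 7.89, 8.14 and 7.99 FPKM in ADM+DHT and 20.9, 17.8 and 18.6 FPKM in control (-1.15 ± 0.066). The genes that rose were the exporter gene Abca1, with 19.0, 19.3 and 17.7 FPKM in ADM+DHT and 4.16, 4.12 and 3.94 FPKM in control (1.95 ± 0.057), and the isomerase gene Ebp, with 31.9, 30.0 and 29.6 FPKM in ADM+DHT and 12.7, 11.9 and 12.3 FPKM in control (1.24 ± 0.050).

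All 21 tested members of the glucocorticoid response list rose in ADM+DHT, 18 of them by at least 2-fold, with a median of 2.04. Glul (ENSMUSG00000026473.15, chromosome 1, 153899944 to 153909723), the glutamine synthetase that serves as a classic glucocorticoid target in muscle and lung, had 154, 145 and 142 FPKM in ADM+DHT, 194, 189 and 200.5 in ADM, 18.2, 17.1 and 18.9 in DHT and 5.09, 4.88 and 5.37 in control (4.60 ± 0.050 against control). Lcn2, an iron-carrier-binding protein of the acute phase, had 28.5, 30.8 and 32.3 FPKM in ADM+DHT, 21.8, 24.4 and 21.7 in ADM, 4.11, 3.19 and 3.64 in DHT and 0.216, 0.0918 and 0.182 in control (4.76 ± 0.076). Both genes were thus above control in DHT alone as well, where no dexamethasone is labelled. The median of the list was 0.042 for ADM+DHT against ADM and 1.43 against DHT, in a fit of all 12 libraries whose comparisons share the ADM+DHT libraries. The steroid receptor core element TGTTCT was in 3 of the 18 promoters at hand for this list (16.7%) and in 11.6% of the promoters of all genes tested, on either strand of the RefSeq window from 250 bases before to 50 after the start.

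The androgen response list did not move one way: 15 of 32 members rose, 11 fell and 6 did not pass (median 0.038). Zbtb16, a zinc finger repressor that both hormones induce in other cells, had 13.5, 15.1 and 13.6 FPKM in ADM+DHT, 13.4, 11.5 and 10.8 in ADM, 0.533, 0.753 and 0.734 in DHT and 0, 0.0285 and 0.0300 in control (3.88 ± 0.072 against control). Ndrg1, a stress-induced gene, had 73.3, 72.2 and 71.5 FPKM in ADM+DHT, 28.2, 27.4 and 29.3 in ADM, 38.1, 37.9 and 38.5 in DHT and 19.7, 19.2 and 19.0 in control. It was raised by less in either single treatment than in ADM+DHT (1.85 ± 0.036 against control). Steap4, a metalloreductase (1.65 ± 0.051 against control), averaged 18.6 ± 0.553 FPKM in ADM+DHT, 48.0 ± 0.977 in ADM, 2.81 ± 0.512 in DHT and 5.21 ± 0.118 in control, the order ADM, ADM+DHT, control, DHT also seen for Lpl.

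Nr3c1, the glucocorticoid receptor gene, had 13.2, 12.5 and 12.5 FPKM in ADM+DHT and 24.3, 24.2 and 23 FPKM in control (-0.85 ± 0.047). In the list of steroid receptors, chaperones and steroid enzymes 11 of 21 members fell and 8 rose (median -0.38). Akr1c18 (ENSMUSG00000021214.14, chromosome 13, 4132615 to 4150654), a reductase that inactivates progesterone and has near-identical family members that short reads may confuse, had 59.8, 55.1 and 56.6 FPKM in ADM+DHT, 18.6, 17.5 and 17.2 in ADM, 0.259, 0.489 and 0.348 in DHT and 0, 0 and 0.133 in control (5.80 ± 0.073 against control). Hsd17b11, a dehydrogenase on lipid droplets, averaged 28.4 ± 0.626 FPKM in ADM+DHT and 10.4 ± 0.426 in control (1.36 ± 0.048).

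Acute-phase and complement genes, which liver and fat cells secrete, rose in 17 of 20 members with a median of 1.77. Haptoglobin (Hp) had 289, 298 and 295 FPKM in ADM+DHT and 15.9, 14.8 and 15.9 FPKM in control (4.16 ± 0.040). The protease inhibitor gene Serpina3n, one of a cluster of similar genes, had 25.0, 27.1 and 24.5 FPKM in ADM+DHT and 0.415, 0.0958 and 0.221 FPKM in control (4.42 ± 0.10). The exception that fell was Serpina3g, of the same cluster, at -0.99. Hp and Serpina3n were higher in ADM, at 351 and 38.5 FPKM, and above control in DHT, at 35.0 and 4.43 FPKM.

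Dio2 (ENSMUSG00000007682.6, chromosome 12, 90724552 to 90738438), the deiodinase that activates thyroid hormone, fell most. It had 0.147, 0.212 and 0.210 FPKM in ADM+DHT, 0.893, 0.957 and 0.783 in ADM, 2.28, 2.19 and 2.61 in DHT and 79.1, 75.7 and 74.2 in control, so that it was near 0 in every treated group (-6.02 ± 0.056 against control, adjusted p = 2.53e-09). Mfap4, a microfibril protein, had 0.595, 0.981 and 0.692 FPKM in ADM+DHT and 24.1, 41.1 and 39.2 FPKM in control (-4.32 ± 0.20). Crabp2, the carrier of retinoic acid to its nuclear receptor, had 0.548, 0.316 and 0.860 FPKM in ADM+DHT and 25.8, 23.8 and 28.4 FPKM in control (-4.11 ± 0.13). Their ADM means were near those of ADM+DHT, at 0.826 and 0.648 FPKM. Dpt, which encodes the collagen-binding protein dermatopontin, averaged 1.47 ± 0.0548 FPKM in ADM+DHT and 31.1 ± 1.67 in control (-3.70 ± 0.061), below both ADM and DHT at 3.42 and 3.46 FPKM. The GTPase regulator gene Arhgap22 averaged 0.630 ± 0.140 FPKM in ADM+DHT and 13.2 ± 0.136 in control (-3.13 ± 0.079). Emp1, a membrane protein gene, was uneven in ADM+DHT, at 13.4, 1.32 and 1.54 FPKM, against 37.2, 36.3 and 37.9 FPKM in control (-3.12 ± 0.64, adjusted p = 0.00429). Without ADM+DHT replicate 1 its difference was -3.97.

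Genes of cell division fell without exception. All 30 tested members of the mitosis list were lower in ADM+DHT, each by at least 2-fold, with differences from -3.59 to -1.55 and a median of -2.56. All 30 tested members of the S phase list were lower too, 24 of them by at least 2-fold (median -1.26), against 31.0% of all genes lower. Mki67 (ENSMUSG00000031004.8, chromosome 7, 135689784 to 135716361), whose protein marks dividing cells, had 4.77, 3.56 and 3.34 FPKM in ADM+DHT and 62.0, 59.3 and 51.1 FPKM in control (-3.59 ± 0.12). Top2a (ENSMUSG00000020914.17, chromosome 11, 98992943 to 99024189), the topoisomerase that untangles sister chromosomes, had 3.50, 2.78 and 3.00 FPKM in ADM+DHT and 37.0, 37.0 and 35.0 FPKM in control (-3.19 ± 0.074). The groups were clearly separate for both.

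Several of these promoters carry a cell cycle homology region, TTTGAA. In textbook accounts the DREAM complex holds mitotic genes down through this element in resting cells. Several also carry CCAAT boxes, CCAAT, which the factor NF-Y binds. The stretches below are the 120 bases before the RefSeq start of 4 of the genes that fell most, read 5′ to 3′ on the gene's own strand from RefSeq (GRCm38.p6). They lie at chr9:70421555-70421674 for Ccnb2, chr4:118437344-118437463 for Cdc20, chr7:135716380-135716499 for Mki67 and chr11:99024190-99024309 for Top2a, all on the minus strand. Capitals mark the motifs on either strand, which on the opposite strand read TTCAAA and ATTGG.
Ccnb2: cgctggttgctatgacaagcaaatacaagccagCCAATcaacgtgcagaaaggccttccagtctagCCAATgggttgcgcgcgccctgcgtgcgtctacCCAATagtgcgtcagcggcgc
Cdc20: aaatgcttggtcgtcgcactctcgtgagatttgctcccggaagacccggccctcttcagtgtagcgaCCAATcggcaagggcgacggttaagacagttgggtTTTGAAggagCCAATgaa
Mki67: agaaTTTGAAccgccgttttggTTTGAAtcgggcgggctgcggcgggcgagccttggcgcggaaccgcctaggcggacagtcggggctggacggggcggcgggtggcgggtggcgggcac
Top2a: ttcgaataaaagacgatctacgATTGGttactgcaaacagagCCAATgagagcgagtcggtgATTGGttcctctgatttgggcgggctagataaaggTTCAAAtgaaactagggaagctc

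Ccnb2 had 3 CCAAT boxes in this stretch, Cdc20 had 2 and a cell cycle homology region, Mki67 had 2 cell cycle homology regions, and Top2a had 3 CCAAT boxes and 1 cell cycle homology region. Over the full window of 250 bases before to 50 after the start, TTTGAA on either strand was in 19 of the 25 mitosis promoters at hand (76%), in 3 of 24 S phase promoters (12.5%) and in 11.8% of the 8544 promoters of tested genes. CCAAT was in 20 of 25 mitosis promoters (80%), in 14 of 24 S phase promoters (58.3%) and in 39.7% of all. A match is a run of letters and not a measured site, and TTTGAA and CCAAT share no bases in the stretches shown.

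Ccnb2, a B-type cyclin, had 3.05, 1.82 and 2.27 FPKM in ADM+DHT, 3.55, 2.64 and 2.87 in ADM, 16.1, 18.7 and 16.8 in DHT and 27.4, 28.9 and 29.9 in control (-3.15 ± 0.13 against control). Cdc20, which activates the complex that ends metaphase, averaged 1.51 ± 0.187 FPKM in ADM+DHT and 21.4 ± 1.03 in control (-3.16 ± 0.075). The spindle factor gene Tpx2 and the checkpoint kinase gene Bub1b had differences of -2.86 and -2.71. Of the S phase genes Uhrf1, which copies DNA methylation, averaged 2.23 ± 0.0189 FPKM in ADM+DHT and 24.4 ± 1.51 in control (-2.97 ± 0.062), and the helicase subunit gene Mcm3 6.71 ± 0.209 FPKM in ADM+DHT and 26.4 ± 0.298 in control (-1.83 ± 0.046). The thymidine kinase gene Tk1 had a difference of -2.22 and the ligase gene Lig1 of -2.17. The mitosis list stood at a median of -0.32 against ADM and -2.16 against DHT in the 12-library fit.

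Regulators of entry into the cycle were mixed: 4 of 12 rose and 6 fell. The CDK inhibitor gene Cdkn1a had 40.5, 42.4 and 38.9 FPKM in ADM+DHT, 59.6, 63.8 and 67.7 in ADM, 16.1, 15.6 and 16.1 in DHT and 22.4, 19.7 and 21.2 in control (0.91 ± 0.058 against control). It was above control in both groups in adipogenic medium and below control in DHT. The cyclin-dependent kinase gene Cdk4 averaged 26.2 ± 0.575 FPKM in ADM+DHT and 48.6 ± 1.89 in control (-0.87 ± 0.043), the pocket protein gene Rbl1 had a difference of -1.03, and the inhibitor gene Cdkn2c of -0.32.

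Interferon response genes, part of antiviral defence, were lower: 24 of 27 members fell, 0 rose (1 without control replicate 1 or 2) and 3 did not pass, with a median of -1.09. Their promoters often hold the interferon-stimulated response element, TTTCNNTTTC, the site of the STAT and IRF complex. It is shown here for Ifit1, the list member with the largest fall (chr19:34640769-34640888, plus strand), and for Isg15, chosen after its sequence was seen for a run of 3 overlapping matches (chr4:156200819-156200938, minus strand). Each line gives the 120 bases before the start on the gene's strand, with matches on either strand in capitals, which read as pairs of GAAA on the opposite strand.
Ifit1: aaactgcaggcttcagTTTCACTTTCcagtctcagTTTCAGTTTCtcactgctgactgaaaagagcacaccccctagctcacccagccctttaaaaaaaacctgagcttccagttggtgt
Isg15: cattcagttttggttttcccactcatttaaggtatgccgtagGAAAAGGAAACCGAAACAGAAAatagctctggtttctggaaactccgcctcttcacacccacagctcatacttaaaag

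The element was in 12 of 22 interferon promoters (54.5%) and in 3.09% of all promoters of tested genes in the 300-base window. Ifit1 (ENSMUSG00000034459.8, chromosome 19, 34640871 to 34650009), which binds viral RNA caps, had 1.77, 1.59 and 1.18 FPKM in ADM+DHT, 2.74, 2.73 and 4.92 in ADM, 7.22, 7.62 and 8.0 in DHT and 26.5, 26.1 and 21.9 in control (-3.36 ± 0.11 against control). All treated groups were below control, and ADM+DHT was lowest. Isg15, a ubiquitin-like modifier, had 2.46, 3.12 and 3.35 FPKM in ADM+DHT and 24.2, 22.9 and 20.8 FPKM in control (-2.58 ± 0.10). Ifit3 and its near copy Ifit3b averaged 8.01 ± 0.509 and 3.25 ± 0.170 FPKM in ADM+DHT and 41.2 ± 3.61 and 14.6 ± 0.976 in control (-2.23 ± 0.076 and -1.88 ± 0.069), and Ifi44 0.343 ± 0.0700 FPKM in ADM+DHT and 4.74 ± 0.288 in control (-2.10 ± 0.078).

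Antigen presentation moved less. In the MHC class I and immunoproteasome list 8 of 13 members fell and 2 rose (median -0.31). B2m, the light chain of class I molecules, had 367, 389.5 and 375 FPKM in ADM+DHT and 475, 452 and 474 FPKM in control (-0.31 ± 0.037), H2-K1, a heavy chain with near relatives, had a difference of -0.57, and the proteasome activator genes Psme1 and Psme2 of -0.54 and -0.54. In the cytokine and chemokine list, which also holds genes of other kinds, 7 of 11 tested members fell and 2 rose. The 2 that rose encode neither a cytokine nor a chemokine. The chemokine genes Cxcl12 and Ccl6, both higher in ADM+DHT, are described below and are not among these counts. Il33, an alarm cytokine of stromal cells, had 0.556, 0.636 and 0.568 FPKM in ADM+DHT and 14.2, 12 and 11.4 FPKM in control (-3.09 ± 0.091), and Ccl2, which attracts monocytes, had 2.48, 1.96 and 1.62 FPKM in ADM+DHT and 14.8, 16.5 and 19.4 FPKM in control (-2.57 ± 0.13). Those that rose were the adhesion molecule gene Vcam1, with 91.3, 93.0 and 92.9 FPKM in ADM+DHT and 20.2, 21.2 and 20.3 FPKM in control (2.11 ± 0.037), and Nfkbia, the inhibitor of NF-kappa B, with 44.6, 46.2 and 46.2 FPKM in ADM+DHT and 18.8, 17.7 and 18.8 FPKM in control (1.26 ± 0.042). The summed macrophage and haematopoietic markers moved with the immune lists, at 7.93 ± 0.114 FPKM in ADM+DHT and 17.6 ± 1.10 in control, and their part was not tested.

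Glycolysis and hypoxia genes fell in 22 of 27 members and rose in 3 (median -1.18). Pgk1, a kinase of lower glycolysis, had 37.0, 39.4 and 38.5 FPKM in ADM+DHT, 48.2, 50.3 and 53.2 in ADM, 71.6, 74.5 and 76.6 in DHT and 132, 134 and 134 in control (-1.77 ± 0.036 against control). The mutase gene Pgam1 averaged 57.8 ± 1.29 FPKM in ADM+DHT and 142 ± 5.55 in control (-1.28 ± 0.040), and P4ha1, a collagen prolyl hydroxylase induced by low oxygen, 47.3 ± 0.582 FPKM in ADM+DHT and 115 ± 1.41 in control (-1.26 ± 0.032). Members that rose were Ndrg1, Egln3 at 0.91 and Pfkm at 0.31.

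Ribosomal protein genes fell in all 29 tested members, by less (median -0.71). Rpl4 had 339, 339 and 331 FPKM in ADM+DHT, 334, 336 and 334 in ADM, 511, 496 and 529.6 in DHT and 593, 551 and 568 in control (-0.76 ± 0.036 against control). Rpl5, Rps6 and Rps24 differed by 0.046, -0.028 and 0.041 log2 units from ADM and by -0.80, -0.73 and -0.67 from control. In the list of ER stress and ATF4 targets 20 of 29 members fell and 5 rose (median -0.44). Shmt2, a mitochondrial enzyme of serine breakdown, averaged 20.4 ± 0.584 FPKM in ADM+DHT and 67.8 ± 4.31 in control (-1.68 ± 0.054), and the seryl-tRNA synthetase gene Sars and the amino acid transporter gene Slc7a5 had differences of -1.16 and -1.20. Mthfd2, the next enzyme of the same folate pathway, went up, with 94.3, 98.8 and 96.9 FPKM in ADM+DHT and 47.2, 45.4 and 46.5 FPKM in control (1.04 ± 0.036).

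**Figure D3:**
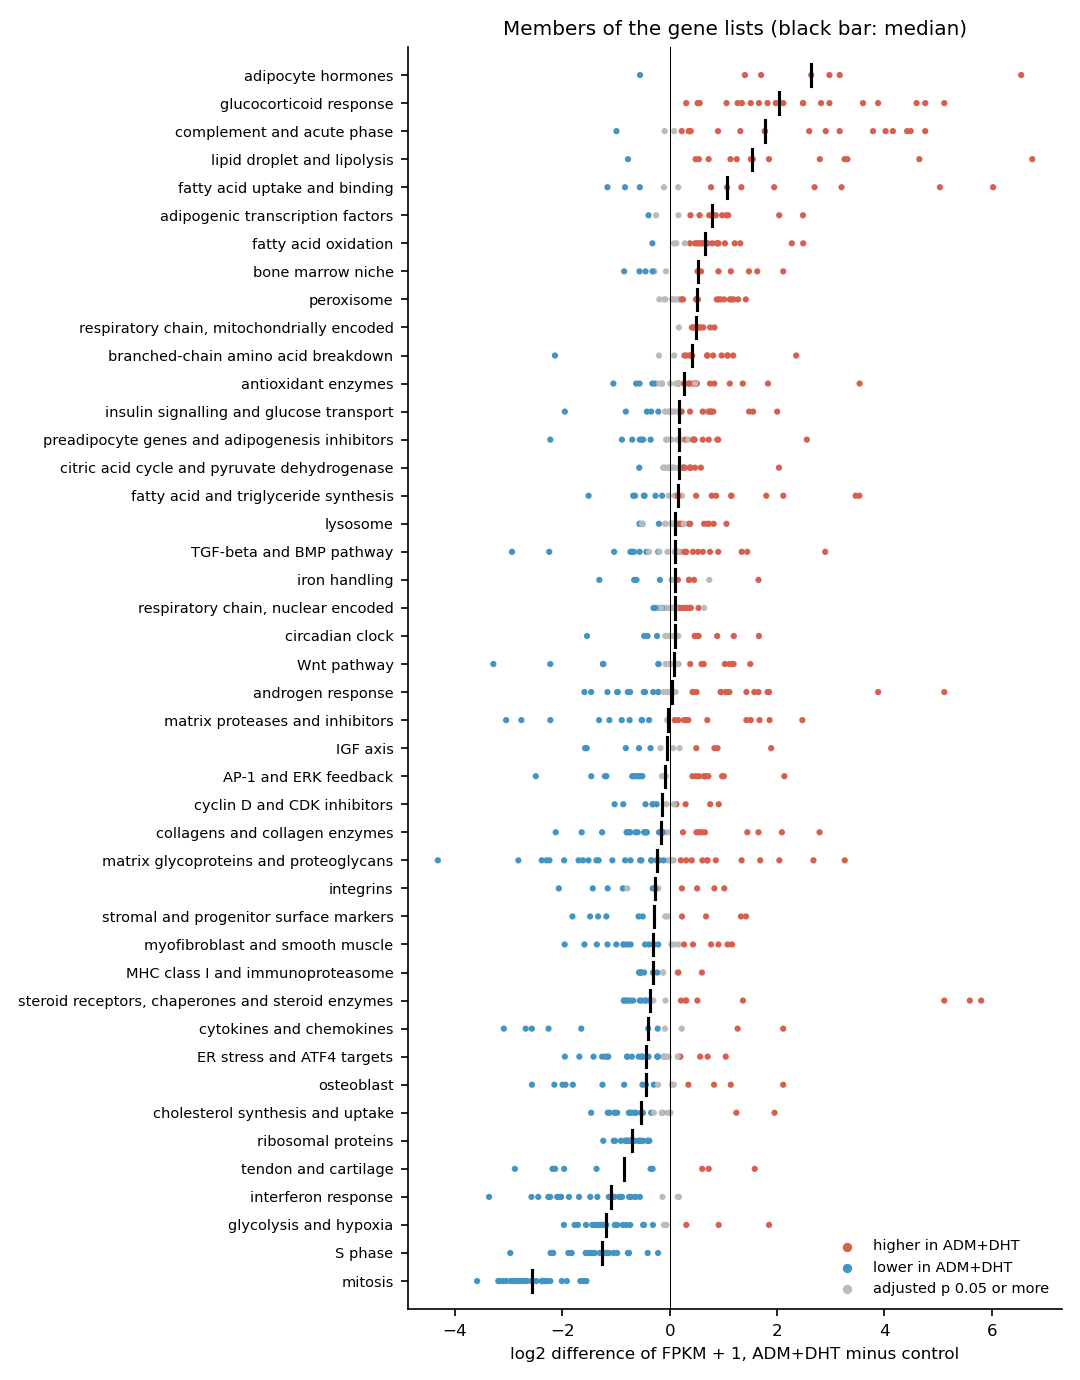
Log2 difference of ADM+DHT minus control for every tested member of the 44 pathway lists, ordered by the median (black bar). Genes in several lists are drawn in each. Red members rose, blue members fell and grey members did not pass. Adipocyte hormones and the glucocorticoid response stand at the top, mitosis and S phase at the bottom, and the matrix lists hold both large rises and large falls.

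The extracellular matrix changed in both directions. Of 29 collagens and collagen enzymes 9 rose and 18 fell (median -0.17). Col12a1, a collagen on the surface of fibrils, had 182, 184 and 185 FPKM in ADM+DHT, 105, 108 and 101 in ADM, 92.3, 85.7 and 82.3 in DHT and 24.0, 27.7 and 25.5 in control (2.79 ± 0.053 against control). The basement membrane pair Col4a1 and Col4a2, which share a promoter region, averaged 407 ± 21.5 and 309 ± 9.06 FPKM in ADM+DHT and 94.8 ± 2.24 and 97.7 ± 1.63 in control (2.09 ± 0.045 and 1.65 ± 0.034). Lox, which crosslinks collagen, had 644, 629 and 616 FPKM in ADM+DHT, 359, 367 and 367 in ADM, 248, 235 and 241 in DHT and 229, 234 and 229 in control. Lox was near control in DHT alone and highest in ADM+DHT (1.45 ± 0.030 against control). The fibrillar collagen gene Col3a1 went down, to 298 ± 6.30 FPKM in ADM+DHT, against 518 ± 10.3 in control (-0.80 ± 0.032).

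Of 37 matrix glycoproteins and proteoglycans 12 rose and 21 fell (median -0.24). Fn1, fibronectin, had 304, 287 and 301 FPKM in ADM+DHT, 136, 136 and 137 in ADM, 879, 814 and 861 in DHT and 929, 911 and 899 in control (-1.62 ± 0.034 against control), so that it was low in both groups in adipogenic medium and lower in ADM than in ADM+DHT. Postn (ENSMUSG00000027750.16, chromosome 3, 54361109 to 54391037), the matricellular protein periostin, had 347, 332 and 337 FPKM in ADM+DHT, 161, 158 and 153 in ADM, 362, 373 and 364 in DHT and 51.4, 53.1 and 51.6 in control. It was at a like level in both groups with DHT (2.68 ± 0.033 against control). Sparcl1, an anti-adhesive matrix protein, was higher in ADM+DHT than in either single treatment, at 53.7, 62.6 and 57.7 FPKM in ADM+DHT, 9.43, 9.06 and 8.86 in ADM, 23.1, 19.5 and 22.4 in DHT and 4.86, 4.84 and 5.79 in control (3.26 ± 0.081 against control). Thbs2, an antiangiogenic thrombospondin, averaged 21.6 ± 0.743 FPKM in ADM+DHT and 72.4 ± 1.55 in control (-1.70 ± 0.041), and the fibril-binding proteoglycan gene Dcn 10.7 ± 0.906 FPKM in ADM+DHT and 59.8 ± 0.423 in control (-2.38 ± 0.061).

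Matrix proteases and inhibitors split evenly, with 11 risen and 10 fallen of 23. Mmp13, a collagenase, had 14, 12.9 and 14.6 FPKM in ADM+DHT, 11.6, 14.2 and 12.4 in ADM, 7.16, 9.23 and 8.87 in DHT and 126, 111 and 128 in control (-3.05 ± 0.067 against control). All treated groups were thus far below control. The metalloprotease gene Mmp19 averaged 49.1 ± 0.700 FPKM in ADM+DHT and 14.7 ± 0.437 in control (1.67 ± 0.041). Of 13 integrins 4 rose and 7 fell. The collagen receptor gene Itga11 averaged 5.45 ± 0.273 FPKM in ADM+DHT and 26.0 ± 0.958 in control (-2.06 ± 0.056), the laminin receptor gene Itga6 1.09 ± 0.0627 in ADM+DHT and 3.66 ± 0.398 in control (-1.16 ± 0.084), and the leukocyte integrin gene Itgb7 0.139 ± 0.0653 in ADM+DHT and 2.09 ± 0.355 in control (-1.43 ± 0.11). The fibronectin receptor gene Itga5 rose by 0.51 ± 0.042, and its mean was 51.1 FPKM in ADM+DHT, 32.6 in ADM, 51.5 in DHT and 35.6 in control.

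Genes of the other mesenchymal fates mostly fell. In the osteoblast list 10 of 17 members fell and 4 rose (median -0.44). Enpp1, which makes the mineralization inhibitor pyrophosphate, had 8.83, 8.87 and 8.54 FPKM in ADM+DHT and 38.6, 37.4 and 37.6 FPKM in control (-2.0 ± 0.043), and Tnfrsf11b, the decoy receptor osteoprotegerin, averaged 3.56 ± 0.0776 FPKM in ADM+DHT and 15 ± 1.22 in control (-1.80 ± 0.070). Spp1, osteopontin, had 414, 414 and 422 FPKM in ADM+DHT and 782, 716 and 757 FPKM in control (-0.85 ± 0.038). Omd, a keratan sulfate proteoglycan of bone, rose, with 86.8, 84.7 and 84.9 FPKM in ADM+DHT and 20.4, 19.5 and 17.2 FPKM in control (2.11 ± 0.062). Runx2 (ENSMUSG00000039153.16, chromosome 17, 44495987 to 44814797), the master factor of bone formation, had 5.58, 5.29 and 5.48 FPKM in ADM+DHT and 4.96, 4.97 and 5.96 FPKM in control, which overlapped (0.039 ± 0.079, 95% interval -0.15 to 0.23, adjusted p = 0.695). Alpl, alkaline phosphatase, was below the filter at 0.167, 0.0830 and 0.550 FPKM in ADM+DHT and 0.133, 0.207 and 0.296 FPKM in control and was not tested.

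Tendon and cartilage genes fell in 7 of 10 members and rose in 3. Tnmd, a membrane protein of tendon, had 17.0, 14.8 and 16.4 FPKM in ADM+DHT, 2.70, 2.88 and 2.81 in ADM, 93.8, 86.7 and 95.5 in DHT and 68.3, 77.4 and 76.3 in control (-2.13 ± 0.069 against control), so that ADM+DHT lay between ADM and control. The tendon factor gene Scx averaged 0.614 ± 0.123 FPKM in ADM+DHT and 11 ± 1.53 in control (-2.88 ± 0.11), and the cartilage collagen gene Col2a1 and the proteoglycan gene Fmod had differences of -2.18 and -1.97. Among 23 myofibroblast and smooth muscle genes 14 fell and 6 rose. Acta2, smooth muscle actin, had 287, 298 and 265 FPKM in ADM+DHT, 168, 208 and 227 in ADM, 706, 669 and 745 in DHT and 733, 713 and 736 in control (-1.36 ± 0.046 against control). The actin-binding Tagln, the tropomyosin gene Tpm2 and the enteric actin gene Actg2 had differences of -1.59, -0.86 and -1.96.

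Factors of the bone marrow niche, through which stromal cells support blood stem cells, rose in 7 of 13 members and fell in 4 (median 0.52, lowest -0.85). Their summed level was not higher in ADM+DHT. The 14 members with values summed to 924 to 929 FPKM in ADM+DHT and 938 to 1005 in control. Cxcl12 (ENSMUSG00000061353.11, chromosome 6, 117168535 to 117181367), the chemokine that retains stem cells, had 164, 164 and 185 FPKM in ADM+DHT, 103, 109.8 and 104 in ADM, 86.3, 75.5 and 73.5 in DHT and 58.6, 52.3 and 52.7 in control (1.63 ± 0.065 against control). Kitl, stem cell factor, had 77.0, 78.0 and 73.5 FPKM in ADM+DHT, 97.3, 102 and 89.2 in ADM, 30.1, 30.3 and 29.7 in DHT and 26.0, 27.7 and 26.5 in control (1.48 ± 0.042 against control). Cxcl12 was highest in ADM+DHT, whereas Kitl was highest in ADM. Of 12 stromal surface markers 4 rose and 6 fell. The growth factor receptor gene Pdgfra, which marks mesenchymal progenitors, had 67.6, 64.1 and 67.2 FPKM in ADM+DHT and 26.6, 25.5 and 25.3 FPKM in control (1.33 ± 0.041), while the peptidase gene Anpep, the adhesion molecule gene Alcam and the tetraspanin gene Cd9 had differences of -1.33, -1.48 and -0.50.

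Signalling pathways showed no common direction. In the preadipocyte list 9 of 22 members rose and 7 fell: Dact1, a Wnt modulator, averaged 9.73 ± 0.789 FPKM in ADM+DHT and 0.826 ± 0.118 in control (2.55 ± 0.085), and the Wnt-binding Sfrp2 0.124 ± 0.0376 FPKM in ADM+DHT and 4.26 ± 0.489 in control (-2.22 ± 0.089). The activin gene Inhba rose by 0.90 and the repressor gene Snai1 by 0.89. In the Wnt list 8 of 20 rose and 6 fell. Rspo2, which amplifies Wnt signals, had 9.66, 6.89 and 9.24 FPKM in ADM+DHT and 90.7, 91.7 and 92.8 FPKM in control (-3.28 ± 0.11), Dkk3, a secreted relative of Wnt inhibitors, had a difference of -1.24, and the receptor gene Fzd7 and the CCN family gene Wisp2 rose by 1.03 and 1.11.

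In the TGF-beta and BMP list 13 of 29 rose and 10 fell. Fst, follistatin, which binds activins, had 72.8, 58.4 and 55.5 FPKM in ADM+DHT and 6.96, 9.30 and 6.33 FPKM in control (2.90 ± 0.15), and Tgfbi, a matrix protein that TGF-beta induces, had 0.740, 0.767 and 0.403 FPKM in ADM+DHT and 11.9, 11 and 11.5 FPKM in control (-2.94 ± 0.10). The co-receptor gene Tgfbr3 rose by 1.34 and the secreted Fstl1 by 0.75. Among AP-1 and ERK feedback genes 10 rose and 10 fell of 23, and members of the same factor went opposite ways: Fos had 13.6, 12.7 and 10.3 FPKM in ADM+DHT and 2.20, 1.55 and 2.28 FPKM in control (2.14 ± 0.13), and Fosl1 had 8.62, 5.75 and 8.83 FPKM in ADM+DHT and 47.0, 44.5 and 51.3 FPKM in control (-2.49 ± 0.14). Jun rose by 0.72, and the ERK inhibitor gene Spred2 had a difference of -1.46.

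Insulin signalling had 10 of 22 members risen and 5 fallen. Pik3r1, the regulatory subunit of PI3 kinase, had 63.9, 64.7 and 64.9 FPKM in ADM+DHT, 73.9, 77.7 and 71.9 in ADM, 14.5, 14.9 and 14.1 in DHT and 14.7, 16.3 and 15.1 in control (2.00 ± 0.047 against control). The transcription factor gene Foxo3, which insulin restrains, rose by 1.48 ± 0.051, and the pseudokinase gene Trib3 averaged 5.09 ± 1.00 FPKM in ADM+DHT and 22.4 ± 1.98 in control (-1.95 ± 0.13). Of 12 members of the IGF axis 4 rose and 5 fell. The growth factor gene Igf1 had 57.1, 55.3 and 56.9 FPKM in ADM+DHT and 166, 175 and 159.9 FPKM in control (-1.55 ± 0.041), and the binding protein genes Igfbp5 and Igfbp7 had differences of -1.58 ± 0.031 and 1.89 ± 0.034. Pappa, a protease that frees IGF from binding proteins, was at 14.8 ± 0.464 FPKM in ADM+DHT, 6.50 ± 0.401 in ADM, 8.72 ± 0.585 in DHT and 7.53 ± 0.370 in control (0.89 ± 0.056 against control).

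Antioxidant enzymes rose in 17 of 29 members and fell in 5 (median 0.28). The membrane glutathione transferase genes Mgst1 and Mgst3 averaged 27.2 ± 3.08 and 57.8 ± 1.78 FPKM in ADM+DHT and 1.43 ± 0.248 and 15.6 ± 2.25 in control (3.54 ± 0.11 and 1.83 ± 0.094), and Gpx4, which repairs oxidised membrane lipids, rose by 0.83 ± 0.043. Lysosomal genes rose in 11 and fell in 4 of 26 members, with Psap, the precursor of saposins, at 805 ± 7.33 FPKM in ADM+DHT and 386 ± 6.86 in control (1.06 ± 0.029), and Ctsk and Atp6v0a1 risen by 0.70 and 0.73. For iron handling 5 of 12 members rose and 4 fell, of which 2 fell without replicate 1 or 3 of either group. The iron exporter gene Slc40a1 averaged 0.431 ± 0.0728 FPKM in ADM+DHT and 2.55 ± 0.203 in control (-1.31 ± 0.081), and the ferroxidase gene Heph and the iron regulator gene Aco1 rose by 0.45 and 0.36. In the clock list 6 of 16 members rose and 4 fell. Per1, which glucocorticoids induce directly, averaged 22.1 ± 0.393 FPKM in ADM+DHT and 6.32 ± 0.442 in control (1.66 ± 0.059), Cry2 and Per2 rose by 1.19 and 0.88, and the repressor gene Bhlhe40 averaged 10.1 ± 0.510 FPKM in ADM+DHT and 31.3 ± 1.37 in control (-1.54 ± 0.056).

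ADM+DHT was not always between the single treatments. In the fit of all 12 libraries, 462 of 11152 genes (4.14%) were higher in ADM+DHT than in each of the other 3 groups, and 277 (2.48%) lower than in each, with the largest of the 3 p-values taken as the gene's p and adjusted over all genes. The genes named here are those with the largest distance to the next group. Akr1c18, described above, was among them (1.63 against ADM, 5.42 against DHT). Orm3 (ENSMUSG00000028359.4, chromosome 4, 63356162 to 63359511), an acid glycoprotein of the acute phase with near-identical neighbours, had 20.8, 24.9 and 22.1 FPKM in ADM+DHT, 1.82, 2.15 and 2.34 in ADM, 3.51, 3.28 and 3.63 in DHT and 0.150, 0 and 0 in control (adjusted p = 5.14e-08). Klk1b21 (ENSMUSG00000066516.5, chromosome 7, 44102328 to 44106583), a kallikrein of a family of near copies that androgens regulate in the mouse salivary gland, had 18.8, 18.4 and 20.9 FPKM in ADM+DHT, 1.58, 2.22 and 2.20 in ADM, 2.12, 3.00 and 1.84 in DHT and was listed at 0 in all 3 control libraries (adjusted p = 2.48e-07). Spink8, a protease inhibitor gene, had 6.30, 3.83 and 5.2 FPKM in ADM+DHT, 1.43, 0.619 and 0 in ADM, 0.388, 0.267 and 0 in DHT and 0, 0 and 0 in control. No library of a single treatment reached the lowest ADM+DHT library of these 4 genes.

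Of the others of this kind, Ccl6 and Amy1 were already expressed in control, and Pde1b averaged below 1 FPKM there. The chemokine gene Ccl6 had 44.0, 48.4 and 46.2 FPKM in ADM+DHT, 12.8, 11.6 and 13.8 in ADM, 6.60, 5.59 and 7.51 in DHT and 4.78, 3.05 and 5.14 in control. Amy1, an amylase gene with close relatives, averaged 47.4 ± 0.770 FPKM in ADM+DHT, 14.1 ± 1.78 in ADM, 7.53 ± 0.641 in DHT and 4.60 ± 0.306 in control, and Pde1b, a calcium-dependent phosphodiesterase gene, 8.23 ± 0.209 FPKM in ADM+DHT, 2.15 ± 0.128 in ADM, 1.86 ± 0.0911 in DHT and 0.723 ± 0.0912 in control. ADM+DHT stood clear of all other libraries for Ccl6, Amy1 and Pde1b.

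Of the genes lower in ADM+DHT than in each other group, Tnc (ENSMUSG00000028364.15, chromosome 4, 63959785 to 64047015), the matrix protein tenascin C, had 0.339, 0.546 and 0.389 FPKM in ADM+DHT, 3.22, 3.46 and 2.93 in ADM, 3.47, 3.99 and 3.46 in DHT and 9.14, 8.56 and 9.43 in control (adjusted p = 3.31e-07). Mmp9, a gelatinase, had 0.403, 0.194 and 0.243 FPKM in ADM+DHT, 1.58, 1.54 and 2.05 in ADM, 8.99, 8.88 and 8.80 in DHT and 7.21, 7.79 and 8.02 in control, so that it was lower with DHT than without in adipogenic medium and higher with DHT than without in regular medium. Met (ENSMUSG00000009376.15, chromosome 6, 17463800 to 17573980), the receptor of hepatocyte growth factor, had 1.43, 1.60 and 1.25 FPKM in ADM+DHT, 5.34, 5.05 and 5.67 in ADM, 4.41, 6.25 and 3.93 in DHT and 4.34, 5.75 and 5.28 in control, where the other 3 groups overlap and ADM+DHT alone stands apart (adjusted p = 0.000107). The lectin gene Chodl averaged 0.622 ± 0.0649 FPKM in ADM+DHT, 3.42 ± 0.557 in ADM, 2.44 ± 0.387 in DHT and 11.8 ± 0.342 in control. Ccl5, a chemokine gene, had 0.647, 0 and 0 FPKM in ADM+DHT, 1.51, 1.15 and 2.21 in ADM, 4.03, 3.58 and 4.72 in DHT and 7.12, 6.65 and 6.03 in control. The LIM domain gene Lmcd1 had means of 4.88 FPKM in ADM+DHT, 16 in ADM, 11.7 in DHT and 21.9 in control, and the mitochondrial import gene Timm8a1 of 6.11, 16, 14.2 and 19.8 FPKM in the same order. The histone gene Hist1h2ah, which has near-identical copies and little signal in poly(A) libraries, averaged 1.02 ± 0.279 FPKM in ADM+DHT, 3.63 ± 0.878 in ADM, 12.7 ± 1.03 in DHT and 14.6 ± 2.16 in control.

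**Figure D4:**
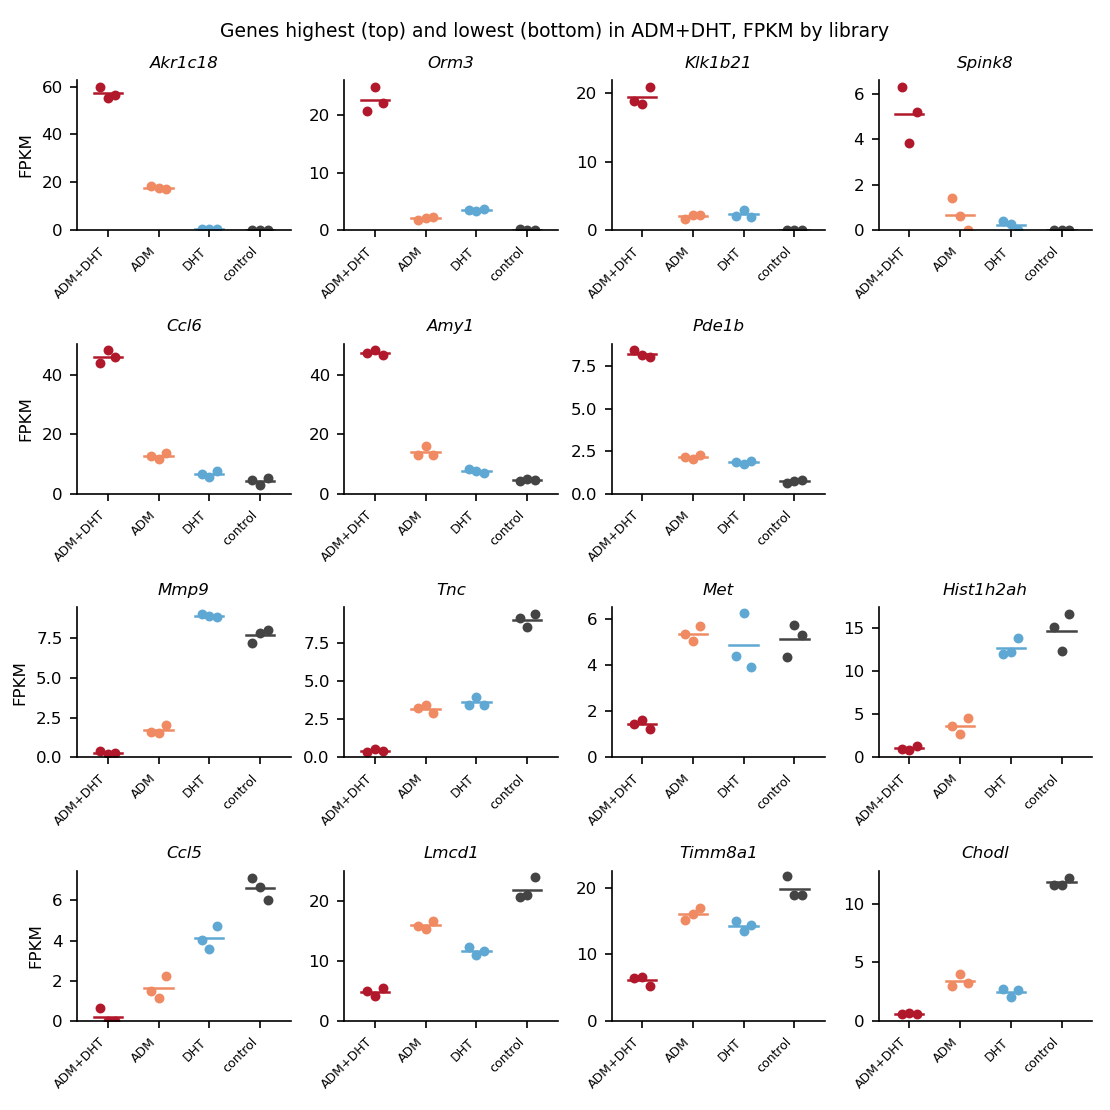
FPKM by library of 7 genes higher (upper rows) and 8 genes lower (lower rows) in ADM+DHT than in every other group, with 1 point per library and a bar for the mean of 3. Groups run ADM+DHT, ADM, DHT, control from left to right. Orm3 and Klk1b21 stay below 4 FPKM outside ADM+DHT, and Met is below 2 FPKM in ADM+DHT and above 3 FPKM in every other library.

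A further set of genes moved in ADM yet stood near control in ADM+DHT, which was how they were chosen (within 1.5-fold of control), so their values are a description. Idh3a, a subunit of isocitrate dehydrogenase, had 20.2, 21.8 and 19.7 FPKM in ADM+DHT, 56.1, 58.4 and 63.7 in ADM, 16.6, 16.5 and 16.6 in DHT and 19.5, 19.7 and 18.8 in control, and Bckdhb, a subunit of the branched-chain dehydrogenase, 11.5, 13.5 and 12.6 in ADM+DHT, 37.6, 39.3 and 36.3 in ADM, 9.63, 10.5 and 8.58 in DHT and 11.2, 12 and 12 in control. Their differences from control were 0.087 and 0.084 (95% intervals -0.036 to 0.21 and -0.078 to 0.24). Ppa1, an inorganic pyrophosphatase, averaged 53.9 ± 2.34 FPKM in ADM+DHT, 184 ± 10.2 in ADM, 37.1 ± 0.726 in DHT and 43.2 ± 2.42 in control. The membrane protein gene Tmem120a, which takes part in fat cell formation in mouse cells, averaged 10.7 ± 0.821 FPKM in ADM+DHT, 33.4 ± 3.78 in ADM, 7.87 ± 0.465 in DHT and 9.08 ± 1.02 in control. The apolipoprotein gene Apoc1 averaged 3.14 ± 0.517 FPKM in ADM+DHT, 11.3 ± 1.65 in ADM, 0.716 ± 0.0815 in DHT and 2.56 ± 0.217 in control, and the membrane protein gene Tmcc3 2.12 ± 0.469 FPKM in ADM+DHT, 7.78 ± 0.424 in ADM, 1.89 ± 0.245 in DHT and 2.46 ± 0.150 in control. These 6 genes were highest in ADM. Timp3, an inhibitor of metalloproteases, was low in ADM alone, at 58.8, 62.7 and 60.4 FPKM in ADM+DHT, 12.3, 12.4 and 13.4 in ADM, 66.6, 65.2 and 69.1 in DHT and 79.5, 79.4 and 79.3 in control, and still differed from control (-0.38 ± 0.036, adjusted p = 6.99e-05). Rgs13, a regulator of G protein signals, was moved in opposite directions by the single treatments, with 17.0, 17.6 and 17.8 FPKM in ADM+DHT, 5.54, 5.53 and 5.56 in ADM, 32.0, 37.0 and 32.7 in DHT and 15.3, 14.3 and 14 in control.

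**Figure D5:**
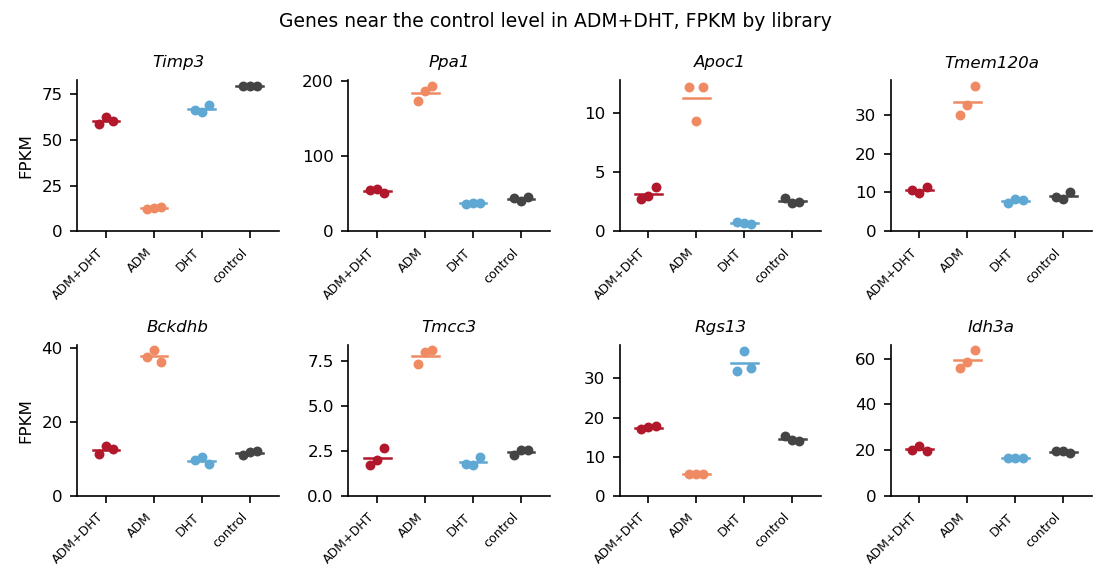
FPKM by library of the 8 genes that differed most between ADM+DHT and ADM while lying within 1.5-fold of control on the log2(FPKM + 1) scale, with 1 point per library and a bar for the mean of 3. Groups run ADM+DHT, ADM, DHT, control from left to right. Timp3 is low in ADM alone, Rgs13 is lowest in ADM and highest in DHT, and the other 6 genes are highest in ADM.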

How the data were processed

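Poly(A) RNA of day 9 cultures was made into stranded libraries and read from both ends for 150 cycles, per the labels' protocols. Without versions or roles, GRCm38, StringTie, HISAT2, cutadapt and FastQC are listed in the submitters' processing notes. Per the file headers, the authors deposited FPKM per library for protein-coding genes in 4 pairwise tables, beside group means that equal the mean of log2(FPKM + 1), a log2 difference, a fold ratio, and p-value and q-value columns whose test is not named; only the FPKM columns were used here. In each table every gene reaches a mean of 0.5 FPKM in a group. Whole reads could not be recovered: at most 17.9% of the values of 150 low genes in a library fell within 0.05 of a whole multiple, so depth and counting error are unknown.

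The tables were joined on gene identifier, and shared values were identical. A library titled ADNDHT2 was read as ADM+DHT replicate 2. Genes with values in all 6 libraries and a group mean of at least 1 FPKM were fitted as log2(FPKM + 1) with limma 3.58.1 (mean-variance trend, R 4.3.3), and p-values were Benjamini-Hochberg adjusted over all of them, with 0.05 as the threshold. A second fit took all 12 libraries. Libraries of a group share 1 clone-derived line, so p-values measure the spread between cultures of that line. Same-numbered ADM+DHT and control libraries showed no sign of pairing (correlation of deviations -0.0751, -0.0659 and -0.0121 over 11338 genes). Whether they shared a preparation is not known.

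The members and the gene lists were chosen with earlier results of these data known. Named genes are the 12 largest rises and falls with at least 5 FPKM in the higher group, the 4 members with the lowest p (or fewer) of every list, a set of genes always named, and 8 genes each above every group, below every group and near control. Acot2, Acsl3, Acsl4, Acsl5, Apln, Hilpda, Egln3, Pfkm, Serpina3g and Isg15 were added after their values were seen. Results for some genes of these sets are not reported here. Promoters came from RefSeq (GRCm38.p6), where 8544 of 10980 symbols matched. Alternatives were other pseudocounts, filters, scalings and variance models, a replicate block and each replicate left out. Python 3.11.15, pandas 2.3.3, numpy 2.4.6 and matplotlib 3.10.9 were used.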

Additional observations from a re-analysis of the deposited data

Results flagged for a closer look

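For 8 of the genes always named, the effect of DHT in adipogenic medium differed from its effect in regular medium. This was tested as the interaction term in the limma fit of all 12 libraries, on the log2 scale used above. Each value has its SE beside it, and p was adjusted over all genes tested. The term was positive where the log2 difference of ADM+DHT from control was above the sum of those of both single treatments. Log2 differences were summed and not FPKM, so a negative term does not show that FPKM rose by less than the single rises together. Over all 11152 genes tested this departure was positive for 1393 (12.5%) and negative for 1442 (12.9%).

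Dio2 had a departure of 3.87 ± 0.093 (adjusted p = 4.64e-10): it stood -0.66 log2 units from ADM in ADM+DHT, and all 3 treated groups were below 3 FPKM in every library. Fkbp5 had a departure of -2.59 ± 0.070 (adjusted p = 1.01e-09), with means of 183 FPKM in ADM+DHT, 117 in ADM, 49.2 in DHT and 4.33 in control. The fat cell genes Adipoq, Fabp4 and Lpl had departures of -1.57 ± 0.11, -1.25 ± 0.066 and -0.91 ± 0.071 (adjusted p = 1.95e-06, 1.52e-07 and 3.34e-06), and each was lower in ADM+DHT than in ADM in all 3 libraries.

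Cebpa had a departure of -2.10 ± 0.68 (adjusted p = 0.0419). It comes from ADM+DHT and control groups that each hold 1 library far from the other 2. Its departure with single libraries left out is not given here, so how far the call rests on those libraries is not shown. Runx2 had a departure of 0.40 ± 0.099 (adjusted p = 0.0115), with means of 5.45 FPKM in ADM+DHT, 4.39 in ADM, 4.70 in DHT and 5.30 in control. Cebpb had a small departure of 0.28 ± 0.089 (adjusted p = 0.0367).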

How the results depend on the processing

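All 123 recounts of genes changed, higher, lower, above every other group, below every other group or departing from the sum of the single treatments stayed within 1.5 times the values reported: genes changed ranged from 4902 to 6895, higher from 2312 to 3495, lower from 2590 to 3558, above from 342 to 496, below from 203 to 309, and departing from 2402 to 2924. The share of calls that were higher was 45.8% to 52.9%, against 48.3% as reported. With the replicate number as a block, 6248 genes changed (2997 higher, 3251 lower). There 433 were above and 247 below every other group, and 2750 departed. Of the ADM+DHT and control libraries 0 of 6 correlated best with their own number. This showed no sign of pairing, and whether same-numbered cultures shared a preparation is not known. Of the named genes' values, 3945 kept direction and side of the threshold and 5 reversed. After quantile normalization mt-Nd5 stood at -0.000 and mt-Nd2 at 0.000. Without control replicate 1 Tnnc1 stood at -0.079 and Mbp at 0.061, and their leave-out values ran to 0.287 and from -0.354. Cebpa stood at 0.074 without ADM+DHT replicate 1 and 0.080 without ADM+DHT replicate 3, within a leave-out range of -0.914 to 0.080. Tmem120a gained a call with the block (adjusted p = 0.0282, limma), without the mitochondrially encoded genes (0.0352) and without control replicate 3 (0.0202), and Tmcc3 without ADM+DHT replicate 3 (0.0427); the cause was not tested. Of the counts of list members 52 moved by over 1.5 times and 1712 did not; most of those that moved came to 2 members or fewer, and the filter at 5 FPKM tested fewer genes. Depth is unknown, so the counting error of genes near 1 FPKM could not be computed.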

Other observations

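Each deposited table holds only genes that reach 0.5 FPKM in a group of that table, so 82 genes had values in ADM+DHT and no value in control here, and 150 had values in control and none in ADM+DHT. They entered no test, and those named were picked after their values were seen. By the same filter, a gene without control values or without ADM+DHT values must average below 0.5 FPKM in ADM and in DHT. The low ADM and DHT values of the genes named from both sides follow from that filter and are no separate result. On the ADM+DHT side were 2 more kallikreins of the family of Klk1b21, whose near copies short reads may confuse: Klk1b16 had 2.57, 2.84 and 2.57 FPKM in ADM+DHT, against at most 0.289 in any ADM library and 0.0864 in any DHT library, and Klk1b22 had 1.81, 1.99 and 2.40 FPKM in ADM+DHT, against at most 0.436 in ADM and 0.448 in DHT. The laminin chain gene Lamc3 had 1.35, 1.72 and 1.79 FPKM in ADM+DHT, against at most 0.350 in ADM and 0.0536 in DHT. Dok7, an adaptor of the receptor at the nerve-muscle junction, had 1.64, 3.08 and 3.10 FPKM in ADM+DHT, against at most 0.366 in ADM and 0.280 in DHT. The complement gene C7 had 0.715, 1.03 and 1.14 FPKM in ADM+DHT and was listed at 0 in all 3 ADM libraries.

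Of the 150 genes on the control side, the chemokine gene Cxcl5 had at most 0.155 FPKM in ADM and 0.165 in DHT, against 2.65, 1.32 and 2.24 FPKM in control, and Zbp1, a sensor of viral nucleic acid that interferon induces, had at most 0.196 FPKM in ADM and 0.490 in DHT, against 1.98, 2.08 and 1.91 FPKM in control. Nos1, a nitric oxide synthase, had at most 0.148 FPKM in ADM and 0.172 in DHT, against 2.15, 2.27 and 2.27 FPKM in control. Serpinb9b, a granzyme inhibitor gene with close relatives, had at most 0.135 FPKM in ADM and 0.401 in DHT, against 2.55, 2.57 and 1.93 FPKM in control. Some values rest on 1 library: Pcdhga5 had 36.0, 0.0559 and 0.0764 FPKM and Pcdhgb5 13.2, 0.0172 and 0.0282 FPKM in ADM+DHT, in both cases from ADM+DHT replicate 1 alone.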
